A study of Mus musculus with 16 samples.

Results

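The 10 genes described here encode the PGC-1 coactivators, transcription factors through which they drive mitochondrial biogenesis, and the downstream proteins PERM1 and TFAM. The genes were chosen by symbol and are *Ppargc1a*, *Ppargc1b*, *Perm1*, *Esrra*, *Esrrg*, *Ppara*, *Ppard*, *Nrf1*, *Gabpa* and *Tfam*. All 10 were found among the 55471 genes of the count table and all 10 passed the filter on low counts, which left 14331 genes to test. PGC-1 proteins do not bind DNA themselves. They dock on nuclear receptors such as the estrogen-related receptors and PPARs and on factors such as NRF1 and GABP, and so raise the expression of genes for oxidative phosphorylation, fatty acid oxidation and mitochondrial DNA transcription. In skeletal muscle this program is known for its rise with endurance exercise and for its link to oxidative capacity.

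Skeletal muscle of 16 male mice was sequenced in bulk after they had been fed a high-fat diet (HFD) for 12 weeks, with 60% of energy from lipids, to ask how partial loss of the natriuretic peptide receptor GCA, encoded by *Npr1*, alters muscle. Of these, 10 libraries carry the label heterozygous, for *Npr1*+/- mice of the B6.129-Npr1 tm1Gar/J line backcrossed to C57BL/6J over at least 10 generations, and 6 carry the label wildtype, for *Npr1*+/+ littermates. The methods of the study give an age of 12 weeks without saying whether before or after the diet, the heterozygous loss is present in the whole body, and which muscle was sequenced is not given in the sources used here. Each library is 1 mouse, and the mice came from 4 cages, numbered 675 to 678, of which each held both genotypes. Body weight was 43.6 ± 3.79 g (SD, n = 10) under the *Npr1*+/- label and 47.4 ± 4.69 g (SD, n = 6) under the *Npr1*+/+ label.

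*Npr1* mRNA was not lower in the libraries labelled *Npr1*+/-. Its level was 9.82 CPM in the lowest, 12.0 at the median and 22.2 in the highest of the 10 libraries labelled *Npr1*+/-, and 10.4, 12.4 and 13.4 CPM in the 6 labelled *Npr1*+/+, where CPM is the count scaled to library size, here after TMM normalization. The log2 fold change was 0.09 (standard error, SE, 0.20, with an adjusted p of 1 in the quasi-likelihood test of edgeR after Benjamini-Hochberg correction). Which part of the gene the targeted allele lacks is not given in the sources used here, and the counts cover all exons, so this level does not show which alleles a mouse carried. Every direction below is therefore between libraries as labelled.

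Libraries held 15273472 to 59682677 counts. All 12 muscle fibre markers were detected, with a summed level of 93500 to 187000 CPM in the libraries labelled *Npr1*+/- and 95700 to 161000 CPM in those labelled *Npr1*+/+, whereas the 5 macrophage markers summed to 20.7 to 37.2 CPM and 23.0 to 37.5 CPM. In bulk muscle, fewer cells of a type and less RNA per cell cannot be told apart. Replicates 5, 6 and 7 labelled *Npr1*+/- stood apart from the others on the first principal component of all genes tested, which held 43.7% of the variance, with scores of 42.8, 66.1 and 79.9 against -53.9 to 18.6 in the other 13 mice. In these 3 libraries longer genes were higher relative to the mean of all mice (Spearman's rho across genes of 0.442 to 0.534, against -0.438 to 0.204 in the others). Replicates 1, 8 and 9 labelled *Npr1*+/- had 5.21% to 9.10% of their counts on CT010467.1, a gene annotated as ribosomal RNA, against 0.0484% to 2.36% in the others. The 6 endothelial markers were highest in replicates 5, 6 and 7, at 344, 474 and 518 CPM in sum, against 172 to 304 CPM in the other 13 mice. Comparisons were also run without each of these sets of 3 mice. All 37 genes of the mitochondrial chromosome had a summed count of 0, so the transcripts that TFAM controls could not be tested.

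RefSeq promoter windows, 250 bases before to 50 bases after the start on GRCm38.p6, were matched to 9 of the 10 genes. They were searched on both strands for an ETS site of the GABP type (CCGGAAG), an NRF1 core (GCATGCG), an ERR core (AAGGTCA) and a CRE core (TGACG), since these are the known sites of GABP, NRF1, the ERRs and the cAMP-responsive factor CREB. The part upstream of the deposited gene is shown for the coactivator *Ppargc1a*, with its CRE core in capitals, and for *Perm1*, with its ERR core in capitals. Both matches lie on the strand opposite to the gene, so the capitals show their reverse complement.
Ppargc1a promoter, chr5:51567726-51567975, minus strand: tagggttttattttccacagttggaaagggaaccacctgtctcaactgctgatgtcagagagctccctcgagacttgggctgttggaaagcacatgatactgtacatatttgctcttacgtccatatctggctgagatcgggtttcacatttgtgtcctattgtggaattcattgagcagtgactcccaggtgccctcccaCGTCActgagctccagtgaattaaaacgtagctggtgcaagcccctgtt
Perm1 promoter, chr4:156215677-156215867, plus strand: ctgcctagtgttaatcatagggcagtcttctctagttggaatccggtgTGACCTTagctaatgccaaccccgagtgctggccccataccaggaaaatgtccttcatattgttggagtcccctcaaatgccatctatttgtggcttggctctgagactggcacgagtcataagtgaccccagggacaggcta

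The ERR core was found in the windows of *Perm1* alone among the members, and in 4.72% of all 32851 windows. The CRE core was found for *Ppargc1a*, *Ppara* and *Ppard* and in 20.8% of all windows. The NRF1 core was found for *Esrra*, *Esrrg*, *Gabpa* and *Ppara* (3.58% of all windows), and the ETS site for *Gabpa* and *Tfam* (8.86%). These matches describe the letters of the windows and are not evidence of binding.

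Per length, the 10 genes covered a wide range of levels. *Perm1*, a muscle protein induced by PGC-1 and ERRs, was the highest with 119 ± 21.0 FPKM (SD, n = 16), where FPKM is the CPM divided by the gene length in kilobases, followed by *Esrra*, the estrogen-related receptor alpha, with 55.3 ± 14.6 FPKM. *Tfam*, the factor that packages and transcribes mitochondrial DNA, had 14.2 ± 1.6 FPKM and *Ppargc1a*, encoding PGC-1α, had 9.42 ± 2.60 FPKM. *Gabpa*, the DNA-binding subunit of GABP, had 5.84 ± 1.33 FPKM, *Esrrg*, the estrogen-related receptor gamma, 4.57 ± 1.04 FPKM and *Ppard*, encoding PPARδ, 3.87 ± 1.06 FPKM. The lowest levels were those of *Ppara*, encoding PPARα, with 1.47 ± 0.85 FPKM, *Nrf1*, nuclear respiratory factor 1, with 1.44 ± 0.12 FPKM and *Ppargc1b*, encoding PGC-1β, with 1.22 ± 0.88 FPKM. Between neighbours in this order, only *Esrra* and *Tfam* had ranges over the 16 mice that did not overlap. Within a mouse, *Tfam* was above *Ppargc1a* in 15 of 16 mice, *Esrrg* above *Ppard* in 11 and *Ppara* above *Nrf1* in 7, so the order of the last pair is not settled by these data. The coefficient of variation ran from 8.62% for *Nrf1* to 57.8% for *Ppara* and 71.7% for *Ppargc1b*.

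**Figure D1:**
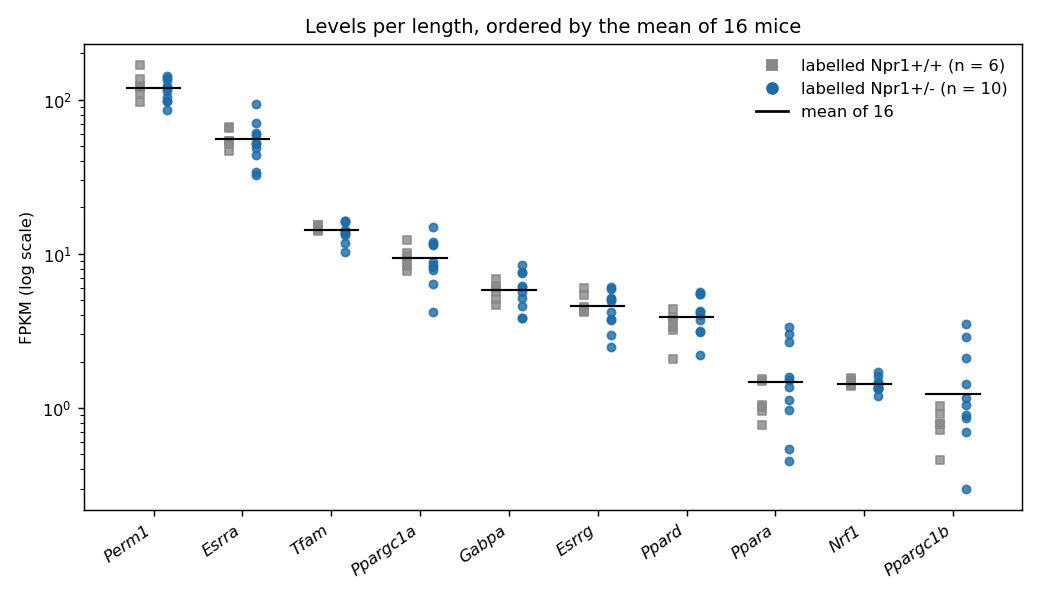
Level of each gene per length in FPKM on a log axis, ordered by the mean of 16 mice (black line), with each point a mouse labelled Npr1+/+ (squares, n = 6) or Npr1+/- (circles, n = 10). Perm1 and Esrra lie above the other 8 genes in all 16 mice, and Ppara and Ppargc1b are spread more widely than Nrf1.

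The genotype comparison asks whether these regulators differed between mice labelled *Npr1*+/- and *Npr1*+/+. None of the 10 passed in edgeR's quasi-likelihood model corrected for cage and body weight. At an adjusted p under 0.05, 0 of 10 members were called, against 0.00% of all genes tested, and at an unadjusted p under 0.05 the count was again 0 of 10, against 1.05%. DESeq2 and limma-voom called 0 members as well. The CPM ranges of the labels overlapped for all 10, and they did not overlap for 0.00698% of all genes. The estimate was below 0 for 6 members and above 0 for 4, with a median log2 fold change of -0.05 against -0.01 over all genes. Without the 3 mice high in CT010467.1, 6 were again below 0 and none was called, and 6 estimates were over 1.5 times as far from 0. These were -0.27 for *Ppargc1a*, 0.67 for *Ppargc1b*, -0.16 for *Esrra*, -0.27 for *Esrrg*, 0.32 for *Ppara* and 0.14 for *Ppard* (adjusted p = 1 in edgeR for each).

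Among the coactivators, *Ppargc1a* (chromosome 5, 51454250 to 51567704, minus strand) was at 27.5 CPM in the lowest, 56.9 at the median and 98.4 in the highest of the libraries labelled *Npr1*+/-, and at 51.2, 60.4 and 81.6 CPM in those labelled *Npr1*+/+. Both extremes thus carried the *Npr1*+/- label, replicate 10 at the bottom and replicate 5 at the top. The genotype difference was a log2 fold change of -0.09 (SE 0.26, 95% confidence interval -0.64 to 0.46, adjusted p = 1 in edgeR). This interval spans 0.643-fold to 1.38-fold, and these mice do not exclude differences within it.

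*Ppargc1b* (chromosome 18, 61298136 to 61400431, minus strand), the closest relative of *Ppargc1a*, was at 1.19 CPM in the lowest, 4.39 at the median and 14.01 in the highest of the libraries labelled *Npr1*+/- and at 1.83, 3.14 and 4.10 CPM in those labelled *Npr1*+/+. It had 20 to 510 counts per library, the fewest of the 10 genes. The 3 highest values, 8.38, 11.5 and 14.01 CPM, were those of replicates 5, 6 and 7 labelled *Npr1*+/-, the mice apart on the first principal component, and the other 7 of that label lay between 1.19 and 5.73 CPM. The log2 fold change was 0.40 (SE 0.39, 95% confidence interval -0.42 to 1.22, adjusted p = 1 in edgeR). It was 0.07 without these 3 mice, and 0.94 (unadjusted p = 0.0273, adjusted p = 0.999 in edgeR) with the genotype label as the sole term. When 1 mouse was left out it ran from 0.11 without replicate 4 labelled *Npr1*+/+ to 0.75 without replicate 5 of that label, and it was 0.26, 0.21 and 0.55 without replicates 5, 6 and 7 labelled *Npr1*+/-, 1 at a time. The 3 libraries are also those highest in endothelial markers, and the part of these libraries and of endothelial cells in the difference was not tested.

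*Perm1* (chromosome 4, 156215868 to 156221307, plus strand) was at 335, 453 and 556 CPM (lowest, median and highest) in the libraries labelled *Npr1*+/- and at 376, 476 and 653 CPM in those labelled *Npr1*+/+. The highest value belonged to replicate 1 labelled *Npr1*+/+ and the groups overlapped over most of their range. The log2 fold change of -0.08 (SE 0.16, adjusted p = 1 in edgeR) was below 0 in each of the 16 fits that left out 1 mouse, from -0.13 to -0.02.

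**Figure D2:**
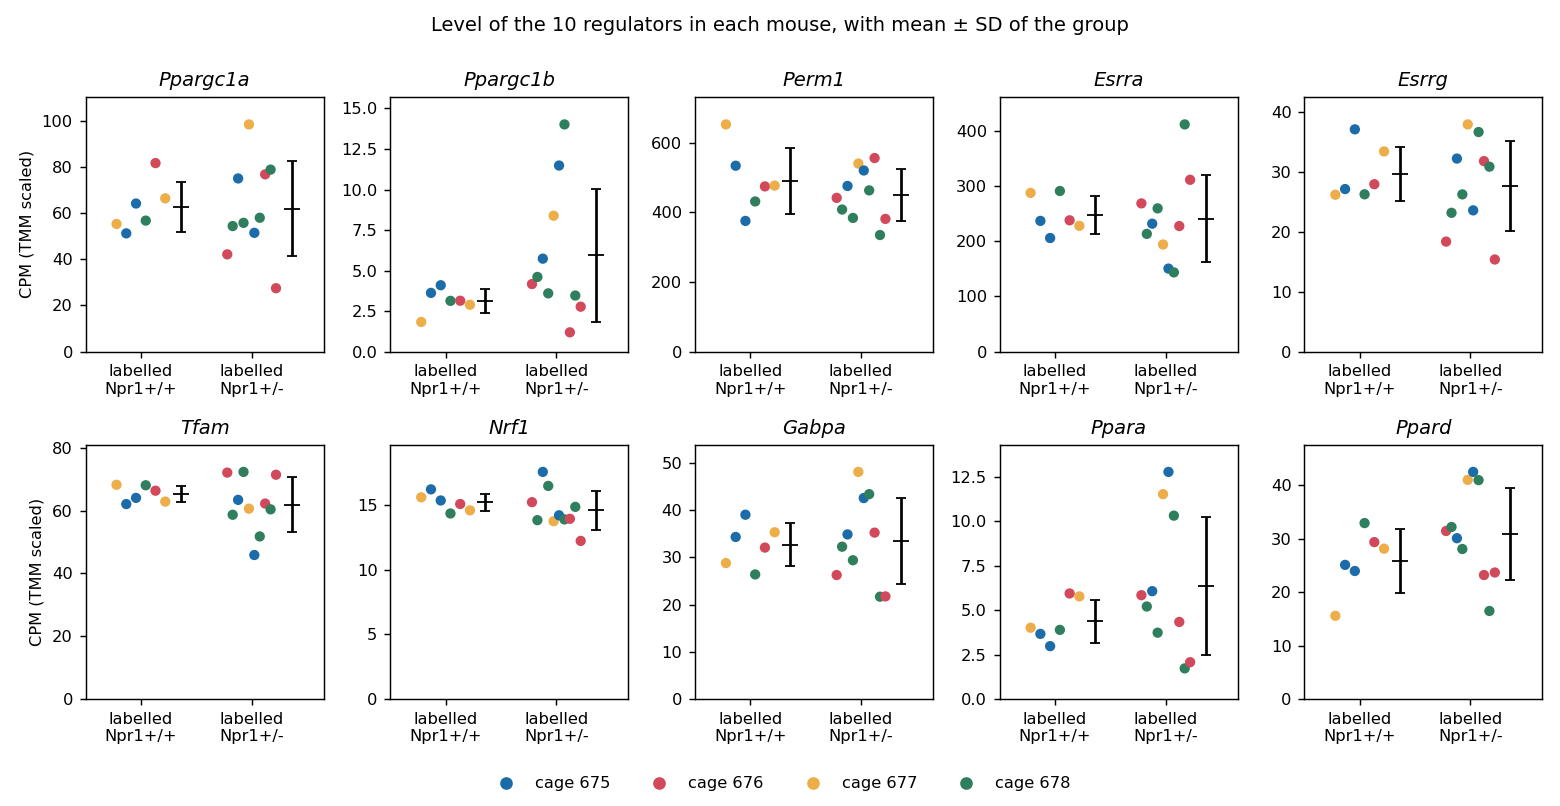
Level of each of the 10 genes in CPM after TMM scaling (y axis from 0), with each point 1 mouse coloured by cage and bars giving the mean ± SD of the 6 mice labelled Npr1+/+ and the 10 labelled Npr1+/-. The labels overlap for every gene, and the 3 mice labelled Npr1+/- with the highest Ppargc1b and Ppara are replicates 5, 6 and 7.

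Of the nuclear receptors that PGC-1 coactivates, *Esrra* (chromosome 19, 6910977 to 6921840, minus strand) was at 144, 230 and 412 CPM (lowest, median and highest) in the libraries labelled *Npr1*+/- and at 206, 238 and 291 CPM in those labelled *Npr1*+/+. The libraries labelled *Npr1*+/- thus spread on both sides of the others, with replicate 7 the lowest and replicate 9 the highest, and the log2 fold change was -0.04 (SE 0.23, adjusted p = 1 in edgeR). *Esrrg* (chromosome 1, 187608791 to 188214386, plus strand), which shares its DNA sites with *Esrra* and is most abundant in oxidative muscle, was at 15.4, 28.5 and 37.9 CPM against 26.2, 27.5 and 37.1 CPM. Its 2 lowest values, 15.4 and 18.4 CPM, were those of replicates 10 and 1 labelled *Npr1*+/-, and the log2 fold change was -0.13 (SE 0.22, adjusted p = 1 in edgeR). It moved with single *Npr1*+/+ mice, to -0.30 without replicate 4 and -0.02 without replicate 5 of that label.

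*Ppara* (chromosome 15, 85734983 to 85802163, plus strand), a fatty acid sensor, was at 1.73, 5.53 and 12.8 CPM in the libraries labelled *Npr1*+/- and at 2.98, 3.96 and 5.95 CPM in those labelled *Npr1*+/+. Replicates 5, 6 and 7 labelled *Npr1*+/- were again the 3 highest, with 11.5, 12.8 and 10.3 CPM. The log2 fold change of 0.16 (SE 0.37, adjusted p = 1 in edgeR) was -0.24 without these 3 mice. *Ppard* (chromosome 17, 28232700 to 28301474, plus strand), the PPAR that prevails in muscle, was at 16.5, 30.8 and 42.5 CPM against 15.6, 26.6 and 32.9 CPM, and the same 3 mice held its highest values, from 41.0 to 42.5 CPM. Its log2 fold change was 0.01 (SE 0.21, adjusted p = 1 in edgeR) and -0.23 without the 3 mice. The direction of both PPAR genes thus turned when these libraries were left out, and neither was called in either fit. With the genotype label as the sole term, the log2 fold changes of *Ppara* and *Ppard* were 0.548 and 0.263. They were 0.674 and 0.277 without body weight as a term, and 0.578 and 0.374 with the replicate number in place of cage. Neither gene was called in these fits.

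Among the factors that act on nuclear genes of the respiratory chain, *Nrf1* (chromosome 6, 30047988 to 30153458, plus strand) varied least, from 12.2 to 17.5 CPM in the libraries labelled *Npr1*+/- and from 14.3 to 16.2 CPM in those labelled *Npr1*+/+. The genotype log2 fold change was -0.06 (SE 0.14, 95% confidence interval -0.35 to 0.24, adjusted p = 1 in edgeR), and ran from -0.12 without replicate 4 labelled *Npr1*+/+ to -0.00489 without replicate 10 labelled *Npr1*+/-. *Gabpa* (chromosome 16, 84834925 to 84862465, plus strand) was at 21.7, 33.6 and 48.1 CPM against 26.4, 33.2 and 39.0 CPM, with a log2 fold change of 0.05 (SE 0.20). *Tfam* (chromosome 10, 71225464 to 71238280, minus strand), a target of NRF1 and GABP, was at 45.9, 61.4 and 72.3 CPM against 62.1, 65.2 and 68.2 CPM. The narrow *Npr1*+/+ range lay within that of the *Npr1*+/- label, and the log2 fold change was -0.08 (SE 0.14, 95% confidence interval -0.38 to 0.21, adjusted p = 1 in edgeR), which spans 0.771-fold to 1.16-fold. Its estimate was -0.14 without replicate 4 and -0.01 without replicate 6 labelled *Npr1*+/-.

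Body weight, a term of the same fit, asks whether a regulator followed the weight the mice had reached, from 36.5 to 54.0 g. By unadjusted p, *Ppara*, *Ppargc1b* and *Ppard* had negative slopes, with lower estimates in heavier mice, but no member passed the adjusted threshold. At an unadjusted p under 0.05, 3 of 10 members had a slope and all 3 were negative, against 17.1% of all genes tested in either direction and 12.3% with a negative slope. At an adjusted p under 0.05, 0 members were called, against 0.00% of all genes. Per 5 g of body weight, the log2 change was -0.69 for *Ppara* (SE 0.25, unadjusted p = 0.0144, adjusted p = 0.245 in edgeR with Benjamini-Hochberg adjustment). It was -0.66 for *Ppargc1b* (SE 0.25, unadjusted p = 0.0181, adjusted p = 0.247) and -0.37 for *Ppard* (SE 0.15, unadjusted p = 0.0207, adjusted p = 0.248) in the same edgeR fit. The slopes of the other 7 members, from -0.14 for *Ppargc1a* to 0.15 for *Esrra*, had an unadjusted p of at least 0.277.

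These slopes rested on few mice. The lightest mouse, replicate 7 labelled *Npr1*+/- with 36.5 g, and replicate 5 of the same label with 39.4 g, are among the 3 mice apart on the first principal component. Without the 3 mice, the slopes were -0.44 for *Ppara*, -0.21 for *Ppargc1b* and -0.25 for *Ppard* (adjusted p of 0.842, 0.854 and 0.842 in edgeR). Without the 3 mice high in CT010467.1 they were -0.56, -0.51 and -0.28 (adjusted p = 0.543 in edgeR for each), and without cage as a term -0.40, -0.36 and -0.22. With the replicate number as a term where cage had been, that of *Ppargc1b* turned to 0.11, and those of *Ppara* and *Ppard* were -0.15 and -0.06 (unadjusted p of 0.581, 0.317 and 0.632, adjusted p = 1 in edgeR for each). Replicate numbers 7 to 10 exist only under the *Npr1*+/- label. Each of these mice, the lightest among them, thus took a term of its own there and added nothing to the slopes. Without replicate 3 labelled *Npr1*+/-, which at 40.1 g was the lightest mouse of cage 675, the slopes were -0.988, -0.997 and -0.565, with adjusted p of 0.012, 0.00751 and 0.0148 in edgeR. In that fit of 15 mice these 3 of 10 members were called, against 22.1% of all genes tested in either direction and 13.7% with a negative slope.

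**Figure D3:**
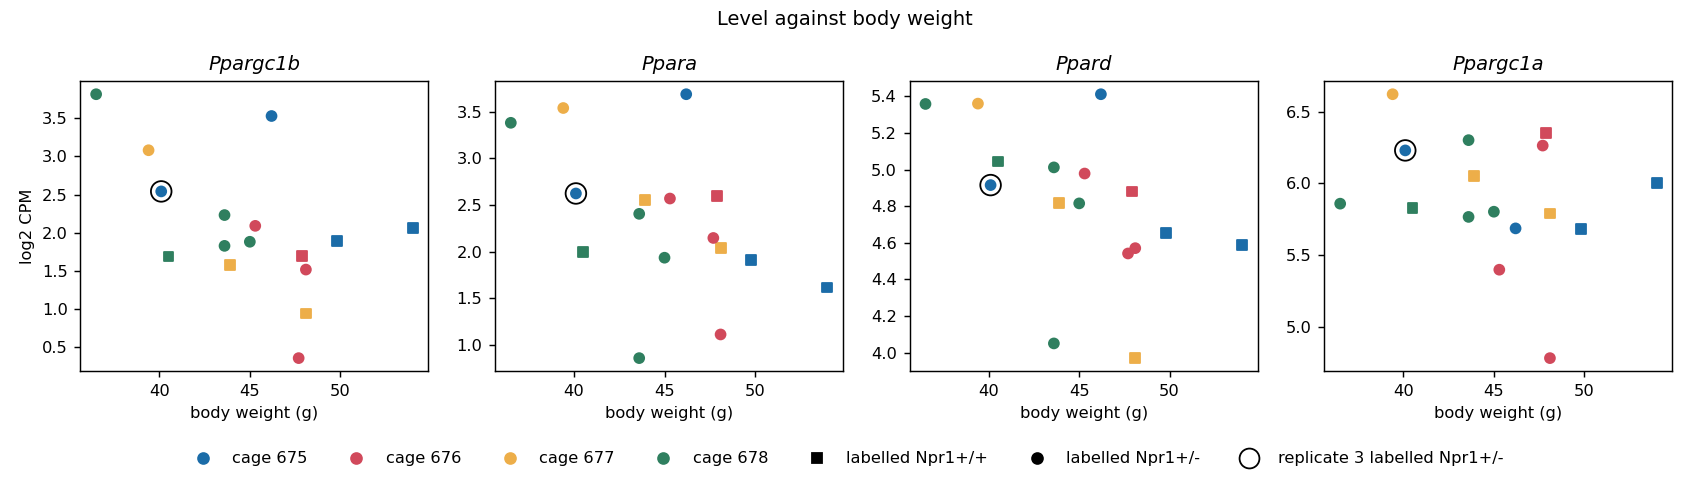
Level on the log2 CPM scale against body weight in g for Ppargc1b, Ppara, Ppard and, for comparison, Ppargc1a, with each point 1 mouse coloured by cage (squares labelled Npr1+/+, circles labelled Npr1+/-). The circled mouse is replicate 3 labelled Npr1+/- at 40.1 g, without which the first 3 genes passed the adjusted threshold for body weight.

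**Figure D4:**
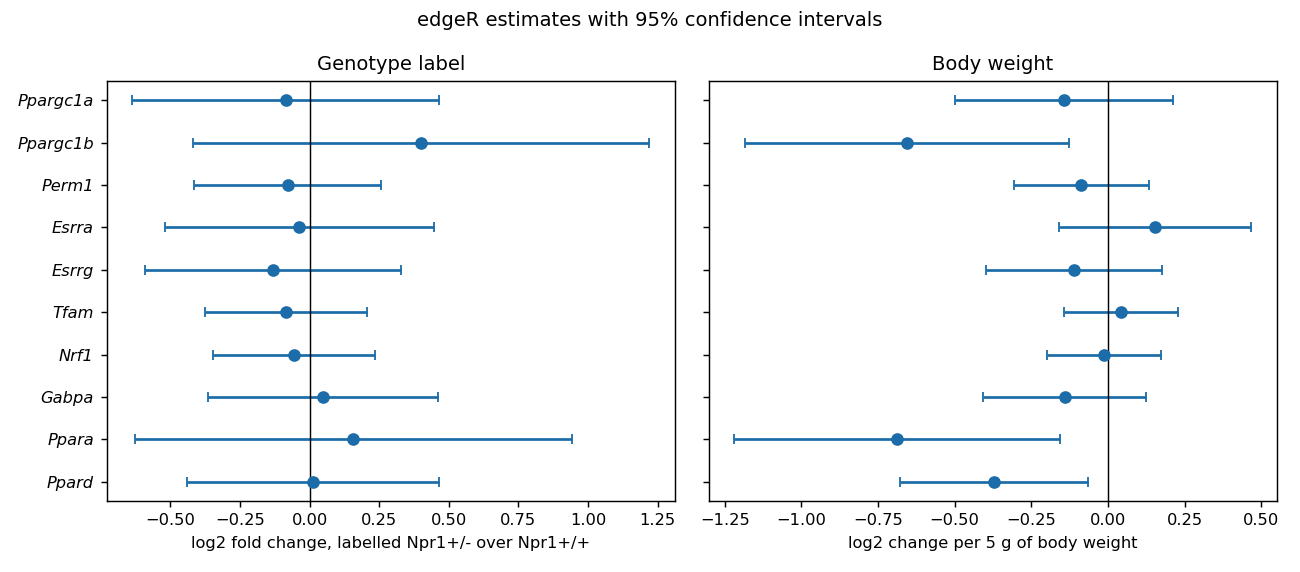
edgeR estimates for the 10 genes with 95% confidence intervals, as the log2 fold change between the genotype labels (left) and the log2 change per 5 g of body weight (right), each corrected for the other and for cage. All intervals on the left include 0, and those of Ppargc1b, Ppara and Ppard on the right do not.

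Cage, the last term of the fit, asks whether mice housed together shared a level. No member was called, against 0.0279% of all genes tested. At an unadjusted p under 0.05 the count was 1 of 10, against 7.36%, and this was *Ppargc1b* (unadjusted p = 0.0344, adjusted p = 0.656 in edgeR with Benjamini-Hochberg adjustment). Its level was 6.23 ± 3.61 CPM in cage 675 (SD, n = 4), 2.82 ± 1.24 CPM in cage 676 (SD, n = 4), 4.37 ± 3.52 CPM in cage 677 (SD, n = 3) and 5.76 ± 4.65 CPM in cage 678 (SD, n = 5). *Perm1* ran from 404 ± 48.6 CPM in cage 678 (SD, n = 5) to 557 ± 89.0 CPM in cage 677 (SD, n = 3), with an unadjusted p of 0.137 in edgeR. The 3 libraries with the highest *Ppargc1b* came from cages 675, 677 and 678, 1 from each. Without replicate 3 labelled *Npr1*+/-, *Ppargc1b* was called for cage (adjusted p = 0.0255 in edgeR), in a fit that called 6.08% of all genes.

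The members differed in how they varied together from mouse to mouse. Pearson's r of log2 CPM was computed for all 45 pairs over the 16 mice, with two-sided permutation tests of 100000 resamples and Benjamini-Hochberg adjustment over the 45 pairs. Of these, 15 pairs passed an adjusted p of 0.05, 8 with a positive and 7 with a negative r. The same number passed with RLE size factors, where 7 were positive and 8 negative, and with library size as the only scaling, where 10 were positive and 5 negative. With cage means subtracted, 10 pairs passed. With the 3 mice apart on the first principal component left out, 2 pairs passed, without the 3 mice high in CT010467.1, 17, and with Spearman's rho, 4.

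The pair of *Ppargc1a* and *Esrrg*, a coactivator and a receptor it binds, varied together, with r = 0.843 (adjusted permutation p = 0.00112) and rho = 0.791 (adjusted permutation p = 0.0103). Within cages r was 0.844, and it was 0.873 without the 3 mice apart (adjusted permutation p = 0.00495). Without the 2 mice farthest from the median of *Ppargc1a*, r was 0.672 (adjusted permutation p = 0.0768), and the pair did not pass. These were replicates 10 and 5 labelled *Npr1*+/-, of which replicate 5 is also among the 3 mice apart. *Ppargc1a* passed with no other member. Both genes had their highest value in the deepest library, replicate 5 labelled *Npr1*+/-. With the log2 library total, r was 0.593 for *Ppargc1a* (rho = 0.556, adjusted permutation p of 0.0786 and 0.0693) and 0.545 for *Esrrg* (rho = 0.556, 0.0891 and 0.0693), the 2 highest of the 10 genes, adjusted over 20 relations of the members with library measures. Without the 2 mice farthest from the median total they were 0.534 and 0.58, and within cages 0.562 and 0.482. The part of depth in the pair was not tested.

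*Esrra* and *Gabpa* ran in opposite directions, with r = -0.901 and rho = -0.95, each with a permutation p of 1e-05, the smallest these permutations can give, and an adjusted p of 0.00045. The value was -0.922 within cages, -0.882 without the 2 mice farthest from the median of *Esrra*, and -0.912 without the 3 mice apart (adjusted permutation p = 0.00112 and 0.00045). This pair and that of *Ppargc1a* with *Esrrg* were the 2 that passed without the 3 mice apart. Both *Esrra* and *Gabpa* followed the first principal component of all genes, on which the 3 libraries with the strongest trend towards longer genes had the highest scores and to which these genes themselves contribute. There r was -0.927 for *Esrra* (rho = -0.85, adjusted permutation p of 0.0002 and 0.0016) and 0.846 for *Gabpa* (rho = 0.824, 0.00025 and 0.0016), with -0.847 and 0.851 without the 2 mice farthest from the median score and -0.943 and 0.864 within cages. *Ppargc1b*, *Ppara*, *Ppard* and *Tfam* followed it too, with r of 0.861, 0.853, 0.814 and -0.773 (rho of 0.818, 0.706, 0.779 and -0.606, adjusted permutation p of 0.0487 or less). Within cages r was 0.839, 0.924, 0.867 and -0.715, and without the 2 mice farthest from the median score 0.691, 0.777, 0.746 and -0.458. The part of this component and of the length trend in these correlations was not tested.

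Of the other 13 pairs that passed, 12 lay among *Ppargc1b*, *Ppara*, *Ppard*, *Gabpa*, *Esrra* and *Tfam*, and 1 was *Esrrg* with *Gabpa* (r = 0.641, rho = 0.659, adjusted permutation p of 0.0287 and 0.0514). *Ppargc1b*, *Ppara* and *Ppard* varied together, with r = 0.813 for *Ppara* and *Ppard* (rho = 0.768, adjusted permutation p of 0.00225 and 0.0135), 0.749 for *Ppargc1b* and *Ppard* (rho = 0.75, 0.00733 and 0.0136) and 0.664 for *Ppargc1b* and *Ppara* (rho = 0.585, 0.0234 and 0.0821). *Esrra* went against all 3, most with *Ppara* (r = -0.834, rho = -0.653, adjusted permutation p of 0.0018 and 0.0514). *Esrra* and *Tfam* varied together (r = 0.699, rho = 0.644, adjusted permutation p of 0.0159 and 0.0514). Without the 3 mice apart, r was 0.624, 0.484 and 0.133 for the 3 positive pairs in the order given, -0.676 for *Esrra* and *Ppara* and 0.233 for *Esrra* and *Tfam*, with adjusted permutation p of 0.199, 0.301, 0.885, 0.166 and 0.779. Without the 2 mice farthest from the median of the first gene named, r was 0.698 for *Ppara* and *Ppard*, 0.622 for *Ppargc1b* and *Ppard*, 0.424 for *Ppargc1b* and *Ppara*, -0.737 for *Esrra* and *Ppara* and 0.900 for *Esrra* and *Tfam*. For *Esrrg* and *Gabpa*, r was 0.656 without the 3 mice apart (adjusted permutation p = 0.166), 0.581 within cages and 0.427 without the 2 mice farthest from the median of *Esrrg*. The r of the other 5 pairs given here was thus closer to 0 without replicates 5, 6 and 7 labelled *Npr1*+/-, which were high in *Ppargc1b*, *Ppara*, *Ppard* and *Gabpa*, and of which replicates 6 and 7 held the 2 lowest values of both *Esrra* and *Tfam*. With the 3 mice high in CT010467.1 left out, r was 0.913 for *Esrra* and *Tfam*, 0.848 for *Ppargc1b* and *Ppard*, 0.795 for *Ppargc1b* and *Ppara* and 0.767 for *Esrrg* and *Gabpa*, each farther from 0 than in 16 mice. It was 0.755 for *Ppara* and *Ppard*, -0.81 for *Esrra* and *Ppara*, -0.874 for *Esrra* and *Gabpa* and 0.83 for *Ppargc1a* and *Esrrg*, each closer to 0. *Nrf1* and *Perm1* passed in no pair.

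**Figure D5:**
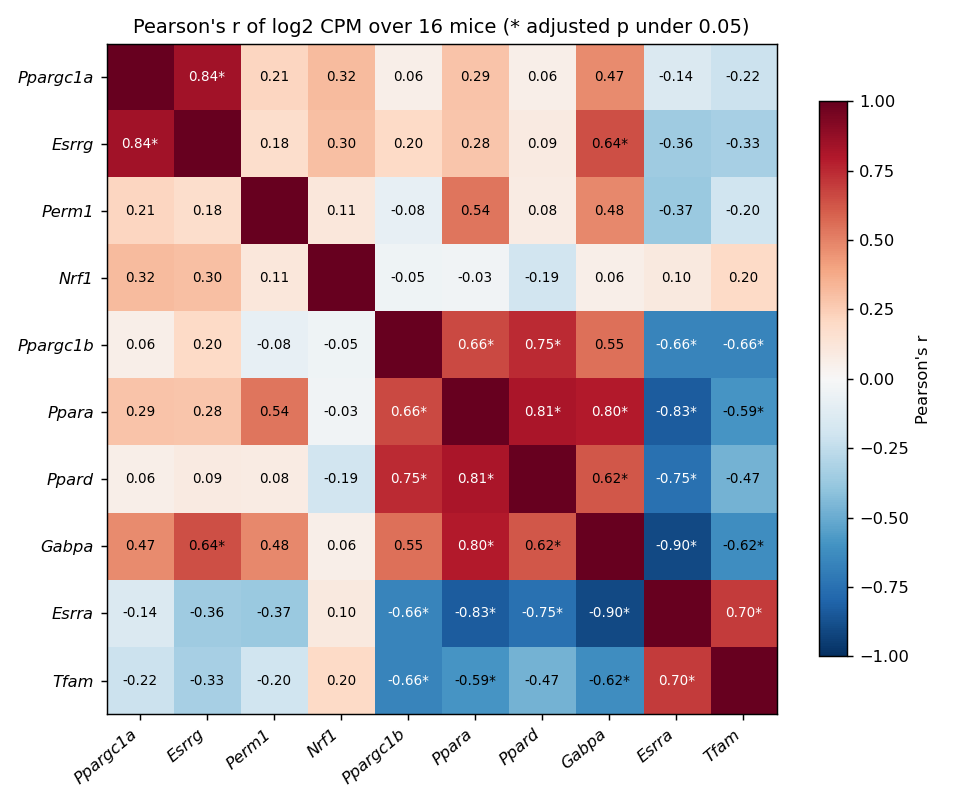
Pearson's r of log2 CPM over 16 mice for the 45 pairs of the 10 genes, from -1 (blue) to 1 (red), with an asterisk where the permutation p adjusted over the 45 pairs is under 0.05. Among Ppargc1b, Ppara, Ppard and Gabpa r is positive, with all pairs but Ppargc1b and Gabpa passing, and against Esrra and Tfam it is negative, with all but Ppard and Tfam passing. Outside these 6 genes, Ppargc1a with Esrrg and Esrrg with Gabpa passed.

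Over all genes tested, those whose log2 CPM was most like *Ppargc1a* over the 16 mice were *Zfp292* (Pearson's r = 0.888), *Qk* (0.876), *Cul5* (0.869), *Pikfyve* (0.867) and *Ythdf3* (0.848). Those most like *Perm1* were *Alg3* (r = 0.923), *Acta2* (0.886), *Alas1* (0.875), *Xpnpep1* (0.871) and *Jmjd4* (0.863). *Alas1* encodes the first enzyme of heme synthesis. These are the highest of 14331 values and are given as a description.

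The genes around the 10 regulators were read from the same fit, and none of the 5 lists below held a called gene in any of the 3 tests. Of 31 tested kinases, phosphatases, deacetylases and factors upstream of PGC-1, 0 had an unadjusted p under 0.05 for the genotype label, against 1.05% of all genes, 19 had an estimate below 0, and the median log2 fold change was -0.04. The direction was not stable, with 23 below 0 and a median of -0.10 without the 3 mice apart, and 12 and 0.03 without the 3 mice high in CT010467.1. The 2 with the smallest p were *Prkag2*, a regulatory subunit of AMPK, with a log2 fold change of -0.22 (unadjusted p = 0.212, adjusted p = 1 in edgeR), and *Creb1*, the cAMP-responsive factor, with -0.18. Of 22 partner factors and coregulators the count was also 0, with 11 estimates below 0 (13 and 9 without the same 2 sets of mice), and the smallest p were those of *Crebbp*, a histone acetyltransferase, with 0.50 (unadjusted p = 0.18 in edgeR) and *Ncor1*, a corepressor, with 0.27. For body weight, 9 of the 31 upstream genes (29.0%) and 8 of the 22 partners (36.4%) had an unadjusted p under 0.05, all with a negative slope, against 17.1% of all genes, or 12.3% with a negative slope. The median log2 change per 5 g was -0.15 for the upstream genes and -0.19 for the partners, against -0.02 over all genes. It was closer to 0 without the 3 mice apart, at -0.07 and -0.08 against 0.02, and without the 3 mice high in CT010467.1 it was -0.11 and -0.14. In the 3 lists below, slopes of both signs had an unadjusted p under 0.05, 2 positive and 4 negative among mitochondrial DNA genes, 2 and 6 among PGC-1 targets and 3 and 2 among PPAR targets.

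Of the genes for mitochondrial DNA upkeep and transcription, 24 of 25 were tested and 1 had an unadjusted p under 0.05 for the genotype label, against 1.05% of all genes. This was *Polg2*, the accessory subunit of the mitochondrial DNA polymerase, at 3.40 ± 0.69 CPM (SD, n = 10) against 4.66 ± 0.53 CPM (SD, n = 6), with a log2 fold change of -0.42 (SE 0.18, unadjusted p = 0.0376, adjusted p = 1 in edgeR). The next was *Rrm2b*, a subunit of ribonucleotide reductase, with 0.25 (unadjusted p = 0.193 in edgeR). Estimates below 0 numbered 16 in this list, 12 without the 3 mice apart and 15 without the 3 mice high in CT010467.1.

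Of 25 target genes of PGC-1 and the ERRs, 0 had an unadjusted p under 0.05 for the genotype label, and 21 had an estimate below 0, with a median log2 fold change of -0.08 against -0.01 over all genes, of which 7389 of 14331 were below 0. The count below 0 was 18 with RLE size factors, 22 with library size only, 14 without the 3 mice apart and 17 without the 3 mice high in CT010467.1. *Kyat1*, an aminotransferase of kynurenine, had the smallest p, with a log2 fold change of -0.18 (unadjusted p = 0.304 in edgeR), and *Atp5b*, the beta subunit of ATP synthase, came next with -0.14 (unadjusted p = 0.342). Of 21 PPAR targets of fatty acid use, 3 of which the list of PGC-1 targets also holds, 12 had an estimate below 0, with a median log2 fold change of -0.09. The count was 12 with RLE size factors, 16 with library size only, 13 without the 3 mice apart and 18 without the 3 mice high in CT010467.1. *Acaa2*, a thiolase of beta-oxidation, had -0.14 (unadjusted p = 0.342 in edgeR).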

How the data were processed

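Skeletal muscle mRNA of 16 mice was sequenced, and groups, cages and body weights were taken from the labels. The authors mapped reads to GRCm38 with STAR 2.7.2b and deposited raw counts per gene of the GENCODE M24 model, made with featureCounts (version 1.6.4 per the labels) from fragments with both ends aligned. The library kit is named as TruSeq Stranded mRNA in the methods and as Universal Plus mRNA-seq in the labels, and the strand setting of the counting is not given in the sources used here, so that antisense transcripts could add to a gene. The other deposited column is a gene length in bases, used for FPKM. Library totals ranged from 15273472 to 59682677 counts. The 95% confidence intervals are those of an estimated log2 fold change or slope, and values after ± are SDs between mice. Of 55471 identifiers, 55144 were paired with a symbol.

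The filterByExpr function, given the genotype label, set which genes were kept. TMM factors scaled the libraries, and tests were run in R 4.3.3 with edgeR 4.0.16 (glmQLFit with robust = TRUE and legacy = TRUE, then glmQLFTest) on genotype label, body weight and cage together, as the methods of the study describe. The Benjamini-Hochberg adjustment was made over the 14331 genes tested, with a threshold of 0.05. Standard errors are the absolute log2 fold change divided by the root of F. Log2 CPM for correlations used a prior count of 2, and permutation tests used 100000 resamples (numpy 2.4.6). The tests were tried on simulated data. DESeq2 1.42.0 and limma 3.58.1 (voom) served as alternatives, beside other covariates, size factors and filters and leaving out each mouse. The 2 sets of 3 mice left out together were chosen after the data were seen, as were the correlations of members with the first principal component and the library total.

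The members and gene lists were chosen with earlier results of these data known. Named beside the 10 members and *Npr1* are, for each list, the genes called in a test (at most 3 per test and direction) or, where none was called, the 2 with the smallest genotype p-value, and the 5 genes most like *Ppargc1a* and *Perm1*. A gene that meets this rule is not reported here. Promoter sequences are from RefSeq (GRCm38.p6). Of the marker lists, slow fibre genes summed to 150.0 to 289 CPM, adipocyte to 303 to 1220 CPM, endothelial to 172 to 518 CPM, tendon and fibroblast to 692 to 1580 CPM, erythroid to 81.0 to 481 CPM, Schwann cell to 42.4 to 70.7 CPM and brown adipocyte to 1.05 to 2.83 CPM, with *Ucp1* and *Elovl3* at 0 in some libraries. The part of other cell types in any result was not tested.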

Additional observations from a re-analysis of the deposited data

How the results depend on the processing

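The genotype label called 0 of the 10 members under every alternative run. Over all genes it called 0, and 151 by unadjusted p, 2 with a replicate block that replaced cage, 6 with DESeq2, 8 with no filter on low counts, 1 without the 3 mice apart on the first principal component and 0 to 3 when 1 mouse was left out. Body weight called 0 genes, and 2449 by unadjusted p, 1 with the replicate block, 26 with DESeq2 and 0 to 3158 when 1 mouse was left out. It called 0 members, 3 by unadjusted p and 0 to 3 when 1 mouse was left out. Cage called 4 genes, and 1055 by unadjusted p, 0 with library size only, 78 with DESeq2, 1 with limma-voom, 23 with no filter, 1 with at least 10 counts in every mouse, 2 without the 3 mice apart, 0 without the 3 mice high in CT010467.1 and 0 to 869 when 1 mouse was left out, and it called 0 members, 1 by unadjusted p and 0 to 1 when 1 mouse was left out. The highest counts for body weight and cage came without replicate 3 labelled *Npr1*+/-, and that for the genotype label without replicate 3 labelled *Npr1*+/+. Of the 45 pairs of members, 15 passed, 3 without the 2 mice farthest from the median of the first gene and 2 without the 3 mice apart. In CPM in place of FPKM, 6 of 10 members kept their place in the order of levels.

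Several member estimates changed sign, among them the body weight slope of *Ppargc1b*, and none of these was called. The genotype log2 fold change of *Ppargc1a* was 0.0291 without body weight as a term. Without cage as a term, that of *Esrra* was 0.00449 and that of *Gabpa* -0.04, that of *Nrf1* was 0.00235 with the replicate block, and that of *Ppard* -0.0172 with limma-voom. Without the 3 mice apart, it was 0.12 for *Esrra*, 0.0075 for *Tfam*, 0.0206 for *Nrf1*, -0.0437 for *Gabpa*, -0.24 for *Ppara* and -0.23 for *Ppard*. When 1 mouse was left out, it ran from -0.23 to 0.23 for *Ppargc1a*, -0.17 to 0.13 for *Esrra*, -0.081 to 0.173 for *Gabpa*, -0.16 to 0.55 for *Ppara* and -0.10 to 0.12 for *Ppard*. The body weight slope with the replicate block was 0.11 for *Ppargc1b*, -0.12 for *Esrra*, -0.0247 for *Tfam*, 0.0117 for *Nrf1* and 0.0445 for *Gabpa*. That of *Nrf1* was 0.011 with RLE size factors, 0.0113 with DESeq2, 0.0354 with library size only, 0.000297 with no filter, and -0.0506 to 0.0552 when 1 mouse was left out. Without the 3 mice apart, the slope was 0.0293 for *Esrrg* and 0.0441 for *Gabpa*. The cause of these changes was not tested.

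The sample titles give no link between same-numbered mice of the 2 labels beyond the number. The mean r of their deviations was 0.08 over 6 pairs (0.0328 to 0.17), of which 1 was over 0.1. Over 54 pairs of different number it was -0.01 (-0.415 to 0.514), and 17 of these pairs were over 0.1. So few pairs cannot settle whether the mice were paired. Replicate numbers 7 to 10 exist only under the *Npr1*+/- label. With the block each of these mice takes a term of its own and adds nothing to the genotype estimate. The block changed no member's call, and with it the genotype log2 fold change of *Ppargc1b* was 1.05 (unadjusted p = 0.00345, adjusted p = 0.52 in edgeR) and that of *Ppara* 0.58 (unadjusted p = 0.0219, adjusted p = 0.521 in edgeR). With 16 mice unevenly spread over 4 cages, the widest 95% interval of a member's genotype fold was that of *Ppargc1b*. It reached from 0.748 to 2.33, and differences within it are not excluded.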
